A study of Arabidopsis thaliana with 116 samples.

Results

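Roots of untreated seedlings were compared between 24 h and 7 h after the seedlings had been moved to fresh medium without hormone. These control roots made up 6 of the 116 libraries of the series, 3 at 24 h and 3 at 7 h, and they were chosen by their tissue, treatment and time labels alone. The plants were Arabidopsis thaliana Col-0, a wild-type accession, grown upright on nylon mesh over agar, with 16 h of light at 22 °C alternating with 8 h of dark at 19 °C. Seedlings on their mesh were lifted onto new plates on the 5th day. Plates held the hormone abscisic acid (ABA) at 2 µM, the defence hormone salicylic acid (SA) at 150 µM, or growth medium with no hormone added, which was the control. Roots and shoots were parted with a razor blade at harvest, so each library holds whole roots of many seedlings and every root cell type together. The other groups used here were ABA-treated and SA-treated roots at 24 h and 7 h (3 libraries each), control shoots at 24 h (3 libraries) and 7 h (2 libraries used), and control roots at 0, 1, 2, 4 and 48 h. The 24 h and 7 h roots differed in time since transfer, in time of day and in seedling age, and these cannot be told apart. The clock time of the transfer is not given in the sources used here. The labels do not say whether replicates came from separate plates or days. The p-values of the root comparison rest on the spread between libraries within groups, estimated over all 58 root libraries, and this spread may be technical.

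The plant circadian clock is a loop of transcription factors that repress each other in turn. CCA1 and LHY peak around dawn and repress evening genes such as TOC1, GI, LUX and ELF4, RVE8 with its LNK partners activates the later genes, and the PRR proteins repress the dawn genes through the day. Roots also run an iron-uptake programme. In it the bHLH factor FIT and its partners bHLH38, 39, 100 and 101 switch on the proton pump AHA2, the ferric reductase FRO2 and the iron transporter IRT1, coumarins are secreted to mobilise iron, and ferritins and vacuolar transporters store it when it is plentiful.

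Expression was read as CPM, a gene's counts per library total after that total was scaled by TMM (a correction for library composition), and changes as log2 fold changes of 24 h minus 7 h from edgeR's quasi-likelihood test. A gene was called when its Benjamini-Hochberg adjusted p was under 0.05. The 24 h libraries held 27201674 to 52347644 counts and the 7 h libraries 16665197 to 41793590. Of 21367 genes tested, 13230 (61.9%) were called, 6659 higher at 24 h (31.2%) and 6571 lower (30.8%). The median log2 fold change over all genes tested was 0.00, but the scaling centres the bulk of genes, so a shift common to all would not show. A change of at least 2-fold was called for 1290 genes higher at 24 h (6.04%) and 1197 lower (5.60%), and one of at least 8-fold for 84 and 38. The libraries of both times did not overlap for 14229 genes (66.6%). A call was thus common, and each count below is to be read against these shares. Leaf photosynthesis genes, which mark shoot tissue, summed to 147.1 to 290.7 CPM at 24 h and 327.3 to 367.8 CPM at 7 h, here per unscaled total of all counts. On that same unscaled basis markers of root cell types summed to 4857.9 to 5394.2 CPM at 24 h and 4043.5 to 4263.0 CPM at 7 h, and none of the 12 was at 0 in all 6 libraries. The part of shoot tissue in the root libraries was not tested. In whole roots, fewer cells of a type and less RNA per cell cannot be told apart. CPM is not scaled by gene length, so values are compared between samples and never between genes.

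**Figure D1:**
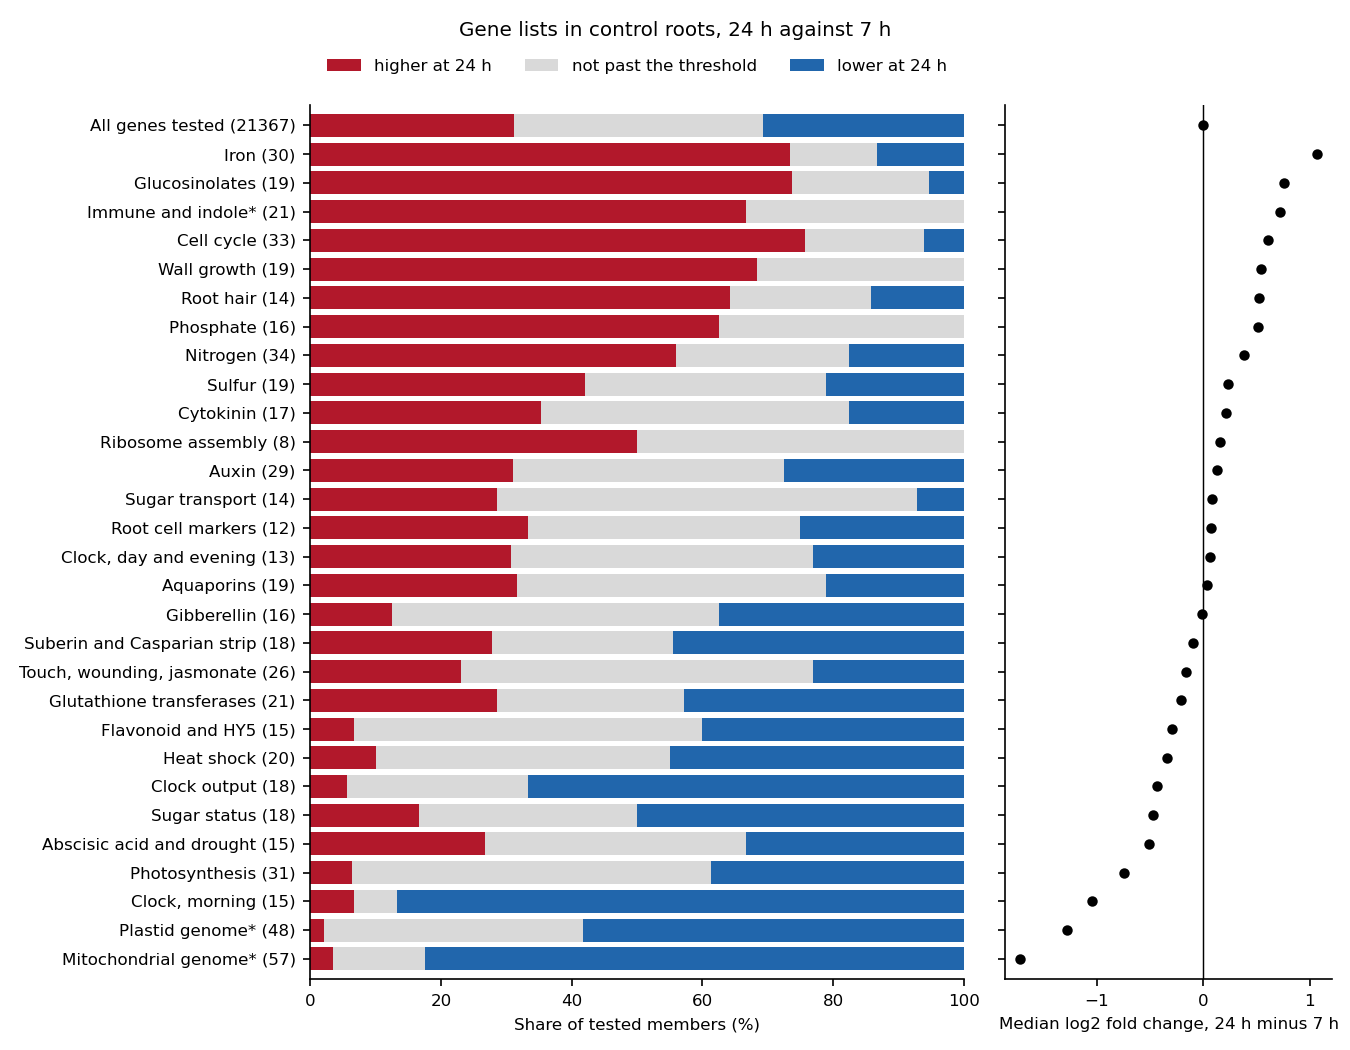
Share of the tested members of each gene list called higher or lower at 24 h than at 7 h in control roots (left, percent of members, number of members in brackets) and each list's median log2 fold change (right). The iron list stands highest at a median of 1.07 and the mitochondrial genome lowest at -1.72, beside 0.00 for all genes; the lists marked with an asterisk, the mitochondrial one included, were drawn up after their values had been seen.

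The dawn genes of the clock were lower at 24 h than at 7 h. Of 15 morning genes, 13 fell, 1 rose and 1 was not called, with a median log2 fold change of -1.04, whereas the 13 day and evening genes split into 4 that rose, 3 that fell and 6 that were not called, with a median of 0.06. The stretches of sequence just upstream of 5 clock genes are shown first, because they hold the elements through which these genes are known to act on each other and on light input. Each line gives the 250 bases before the annotated start of the gene in RefSeq's TAIR10.1, read in the gene's direction. Capitals mark the G-box (CACGTG, searched on both strands), a site for bZIP and bHLH factors, in the first 3 windows, and the evening element (AAAATATCT, searched on both strands), the site of CCA1, LHY and the RVE proteins, in the last 2.
CCA1 (chr2:19245341-19245590, plus strand): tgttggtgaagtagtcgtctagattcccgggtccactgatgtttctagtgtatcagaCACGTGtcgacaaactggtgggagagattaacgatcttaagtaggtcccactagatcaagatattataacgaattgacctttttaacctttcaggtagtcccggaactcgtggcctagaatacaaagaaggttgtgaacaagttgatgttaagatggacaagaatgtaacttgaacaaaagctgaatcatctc
LHY (chr1:37872-38121, minus strand): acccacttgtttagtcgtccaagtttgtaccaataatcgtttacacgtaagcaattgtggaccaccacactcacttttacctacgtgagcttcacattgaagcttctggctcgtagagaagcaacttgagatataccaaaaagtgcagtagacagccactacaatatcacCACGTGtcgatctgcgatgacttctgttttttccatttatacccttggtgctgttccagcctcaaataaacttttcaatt
PRR9 (chr2:19232357-19232606, plus strand): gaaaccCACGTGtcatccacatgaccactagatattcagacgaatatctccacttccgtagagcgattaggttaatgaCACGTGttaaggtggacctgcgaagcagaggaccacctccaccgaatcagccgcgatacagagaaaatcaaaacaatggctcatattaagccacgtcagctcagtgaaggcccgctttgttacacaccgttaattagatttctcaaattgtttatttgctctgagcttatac
LUX (chr3:17182792-17183041, plus strand): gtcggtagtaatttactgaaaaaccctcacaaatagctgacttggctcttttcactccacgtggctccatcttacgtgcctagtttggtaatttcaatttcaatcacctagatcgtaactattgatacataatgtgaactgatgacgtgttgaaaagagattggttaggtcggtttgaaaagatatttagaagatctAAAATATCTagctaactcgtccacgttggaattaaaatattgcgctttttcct
TOC1 (chr5:24674713-24674962, plus strand): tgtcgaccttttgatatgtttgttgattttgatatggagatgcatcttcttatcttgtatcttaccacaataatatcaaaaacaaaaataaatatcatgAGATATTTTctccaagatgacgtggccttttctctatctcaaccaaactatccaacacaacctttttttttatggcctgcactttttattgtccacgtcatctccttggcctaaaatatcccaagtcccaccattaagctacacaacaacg

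The G-box stood 188 bases upstream of the start of CCA1, 75 bases upstream of LHY, and 239 and 167 bases upstream of PRR9. The evening element stood 45 bases upstream of LUX and 143 bases upstream of TOC1. Over the 15 morning genes, 8 windows held a G-box (53.3%), against 7.33% of the 21258 windows of all tested genes that had one. Over the 13 day and evening genes, 5 windows held an evening element (38.5%), against 2.45% of all. A G-box was also held by 3 of those 13 windows (23.1%), and an evening element by 1 of the 15 morning windows (6.67%). The LUX window has a G-box too, left in lower case, 188 bases upstream of the start. These are matches of letters, not measured binding.

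CCA1, a MYB repressor at the core of the loop, had 12.40, 10.75 and 11.78 CPM in 24 h roots, against 36.51, 47.62 and 45.64 CPM in 7 h roots. Its partner LHY had 25.51, 22.23 and 24.45 CPM at 24 h, against 64.13, 72.95 and 65.19 CPM at 7 h. For both genes every 24 h library lay well below every 7 h library, and both falls passed the test (log2 fold change -1.89 ± 0.18 (SE), adjusted p = 3.20e-12 for CCA1, and -1.48 ± 0.18, adjusted p = 7.43e-10 for LHY). RVE8, an activator of evening genes, had 8.634, 10.40 and 10.01 CPM at 24 h, against 33.74, 41.73 and 33.76 CPM at 7 h, a log2 fold change of -1.90 ± 0.17. Its coactivator LNK2 averaged 16.89 ± 1.189 CPM at 24 h and 55.05 ± 9.217 CPM at 7 h (SD, n = 3 each), a log2 fold change of -1.70 ± 0.18. The groups were again apart in each gene.

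Most smaller members of the same families fell too. LNK3 and LNK4 fell by 1.69 and 2.02 on the log2 scale, and averaged 3.627 ± 0.4407 and 4.479 ± 0.9354 CPM at 7 h (SD, n = 3). RVE1, RVE2 and RVE7, whose products are MYB factors close to CCA1, fell by 1.04, 0.77 and 0.80. RVE7 shares a stretch with near-identical copies, so its reads may be split among them. RVE4, RVE5 and RVE6 fell by 0.53, 0.58 and 0.30. PRR9, the first repressor of CCA1 and LHY after dawn, fell by 1.17 ± 0.28, with 6.589, 6.252 and 4.148 CPM at 24 h, against 13.83, 13.95 and 10.11 CPM at 7 h. PRR9 also has a near-identical stretch, of 440 bases, in another annotated gene. LNK1 alone rose, by 0.44 ± 0.14 (edgeR adjusted p = 0.00726), a call that was lost without the 7 h replicate 3, and RVE3 had under 1.1 CPM in all 6 libraries and was not called.

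Among the later genes, LUX, a subunit of the evening complex, was the one that rose most. It had 44.40, 43.73 and 44.17 CPM in 24 h roots, against 25.08, 22.93 and 19.80 CPM in 7 h roots (log2 fold change 0.97 ± 0.10, edgeR adjusted p = 5.43e-12). The 24 h libraries were close together and all above the 7 h ones; another annotated gene overlaps LUX, and counts of overlapping genes can be mixed. TOC1, which represses CCA1 and LHY in the evening, averaged 80.60 ± 1.965 CPM at 24 h and 77.30 ± 1.336 CPM at 7 h (SD, n = 3 each) and was not called (adjusted p = 0.489). GI, which steadies the photoreceptor ZTL, had 65.86, 68.46 and 54.87 CPM at 24 h, against 53.03, 51.65 and 52.89 CPM at 7 h, and was not called (adjusted p = 0.0852). ELF3, the scaffold of the evening complex, fell by 0.43 ± 0.08 and its partner ELF4 was not called, at 46.86 ± 0.3646 CPM at 24 h and 43.56 ± 1.966 CPM at 7 h. ZTL and PRR7 fell by 0.53 and 0.42, and PRR3, LKP2 and FKF1 rose by 0.49, 0.36 and 0.43. FKF1 kept its call only when the 24 h replicate 3 or the 7 h replicate 2 was the library left out, and lost it without each of the other 4. PRR7, PRR3 and LKP2 were not called without replicate 2 of every group, which left 1 day and evening gene that rose and 2 that fell. PRR5, BOA and CHE were not called, with log2 fold changes of -0.17, -0.05 and -0.03.

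**Figure D2:**
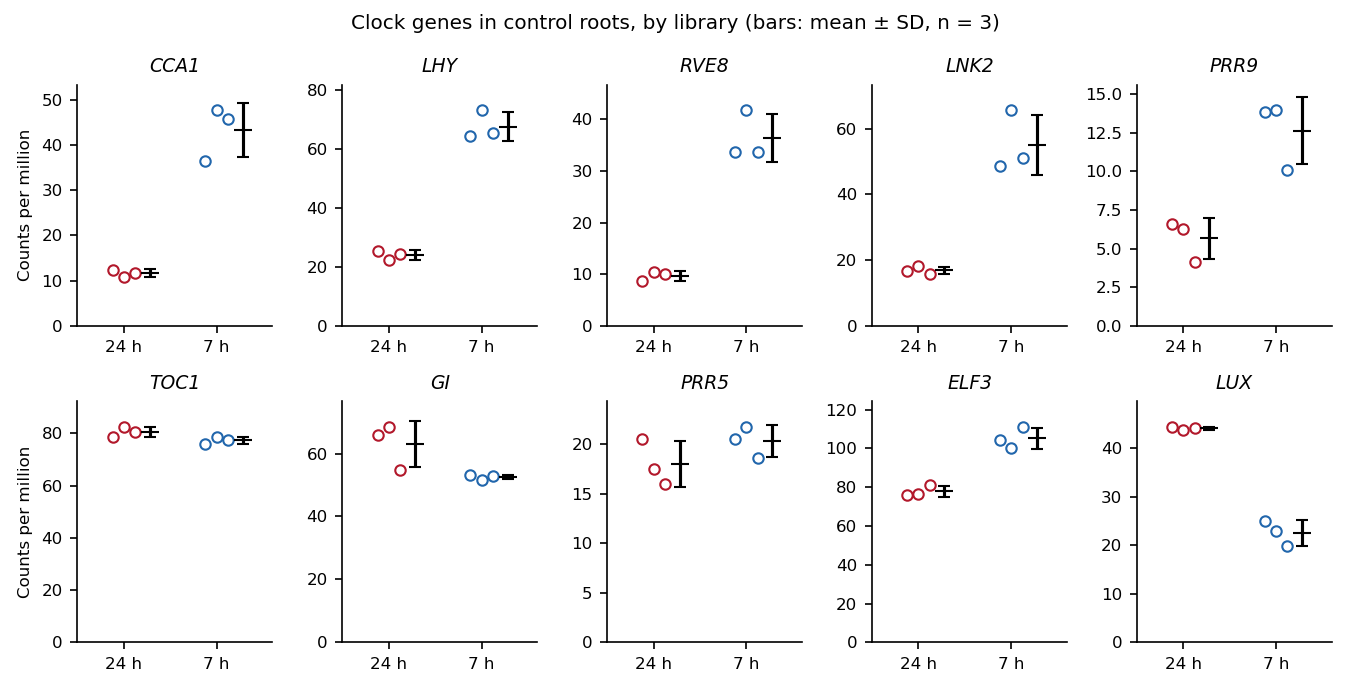
CPM of 10 clock genes in each control root library, 24 h (red) left of 7 h (blue), with the mean and SD of 3 libraries beside the points; each panel has its own axis from 0. CCA1, LHY, RVE8, LNK2 and PRR9 are lower in every 24 h library, LUX is higher in every one, and TOC1 lies between 78.58 and 82.51 CPM at 24 h and between 75.85 and 78.49 CPM at 7 h.

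In control shoots the morning genes moved the other way. Of the 15, 13 were higher and 1 lower at 24 h than at 7 h, with a median of 1.29, beside 4389 genes higher (19.5%) and 3425 lower (15.2%) of 22460 tested there. Of the 13 day and evening genes none rose and 11 fell, with a median of -1.81. CCA1 averaged 379.1 CPM in 24 h shoots, against 53.51 CPM in 7 h shoots (log2 fold change 2.84), and LHY 585.0 CPM, against 46.55 CPM (3.67). PRR5 fell by 4.05, GI by 3.40 and TOC1 by 1.81 on the log2 scale in the shoots. The test of the difference, which called 31.3% of all genes, called a different change in root and shoot for 12 of 15 morning genes and 12 of 13 day and evening genes, ELF3 being the exception. The shoot fit left out 1 shallow library of the 7 h shoots. For CCA1 the difference, root minus shoot, was -4.71 ± 0.31 (SE, edgeR adjusted p = 1.25e-22), for PRR5 3.90 ± 0.27 (adjusted p = 8.61e-21) and for LUX 2.41 ± 0.19 (adjusted p = 6.21e-18). LNK1, RVE7 and PRR9 were the 3 morning genes whose root and shoot changes were not called different.

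**Figure D3:**
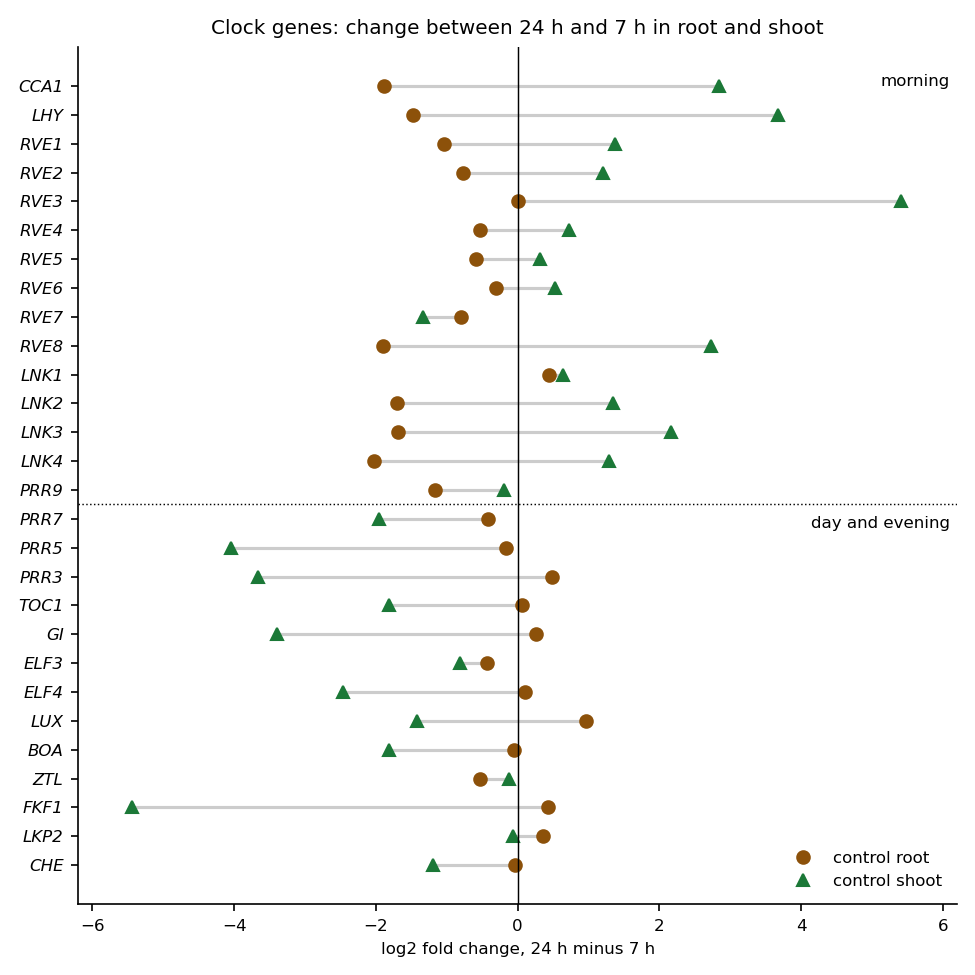
Log2 fold change of 24 h minus 7 h for 15 morning and 13 day and evening clock genes in control roots (circles) and control shoots (triangles). CCA1 stands at -1.89 in roots and 2.84 in shoots, and PRR5 at -0.17 in roots and -4.05 in shoots.

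Over the 7 times of the control roots, CCA1 averaged 20.89, 26.29, 29.68, 31.77, 43.26, 11.64 and 14.23 CPM from 0 to 48 h (0, 1, 2, 4, 7 and 24 h, then 48 h). LHY followed the same order, with its highest mean of 67.42 CPM at 7 h and its lowest of 24.06 CPM at 24 h. LUX averaged 48.10, 40.89, 32.45, 36.49, 22.61, 44.10 and 41.23 CPM. So 7 h was the top of the range for CCA1 and LHY and the bottom for LUX. The 0 and 1 h libraries carry 1 prefix in their library names, the 2 to 24 h libraries another and the 48 h libraries yet another, so steps between the 2 to 24 h libraries and those at 0, 1 or 48 h also cross a library prefix.

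Genes that respond to the clock and to day length fell more often than they rose. Of 18 tested, 12 fell and 1 rose, with a median log2 fold change of -0.43. The count of falls was 7 without the 7 h replicate 2, and the 1 rise, of the catalase CAT2 (0.21), was lost without the replicates 1 or 3 of either time. BBX25, a B-box protein of light signalling, had 3.765, 3.583 and 2.618 CPM at 24 h, against 14.23, 16.22 and 12.68 CPM at 7 h, and fell by 2.13 ± 0.22. CDF3, a DOF repressor of flowering genes, had 8.050, 7.833 and 4.959 CPM at 24 h, against 23.20, 26.90 and 22.95 CPM at 7 h, and fell by 1.83 ± 0.21. Its relative CDF1 was not called, at 2.434 to 2.765 CPM in 24 h roots and 2.218 to 2.766 CPM in 7 h roots, and the RNA-binding protein GRP7, itself under clock control, had a log2 fold change of -0.16 and was not called.

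The iron-uptake programme stood higher at 24 h. Of 30 iron genes, 22 rose and 4 fell, 16 and 3 of them at least 2-fold, with a median log2 fold change of 1.07, the highest of all the lists. IRT1, the main transporter of ferrous iron into the root, had 266.6, 216.1 and 341.8 CPM in 24 h roots, against 60.26, 40.44 and 45.57 CPM in 7 h roots. FRO2, which reduces ferric iron at the root surface, had 193.8, 138.4 and 243.6 CPM at 24 h, against 26.22, 14.47 and 16.59 CPM at 7 h. The 24 h libraries varied among themselves, replicate 3 being highest and replicate 2 lowest for both genes, yet each lay above all 7 h libraries (log2 fold change 2.49 ± 0.29, edgeR adjusted p = 3.54e-10 for IRT1, and 3.32 ± 0.34, adjusted p = 1.82e-11 for FRO2). AHA2, the plasma membrane proton pump that acidifies the soil around the root, averaged 2843.3 ± 231.1 CPM at 24 h and 1081.2 ± 63.56 CPM at 7 h (SD, n = 3 each) and rose by 1.39 ± 0.09. AHA2 shares 1662 bases at 90.2% identity with another proton pump gene.

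Of the regulators, FIT, the master bHLH factor of uptake, rose by 0.53 ± 0.10. Its partner genes bHLH38 and bHLH39 rose by 0.95 and 0.87, and bHLH100 rose by 4.03 ± 0.39, with 13.99, 8.184 and 13.00 CPM at 24 h, against 1.254, 0.6419 and 0.3728 CPM at 7 h. The rise of bHLH100 was 4.67 without the 7 h replicate 1. bHLH101 was not called, at 3.447 ± 1.311 CPM at 24 h and 3.697 ± 0.7165 CPM at 7 h. The IMA peptides, short signals that raise iron uptake, also rose, IMA1 by 1.32 ± 0.22 and IMA2 by 0.63 ± 0.24, a call lost without the 24 h replicate 1 or the 7 h replicate 2. IMA3 had 8.407, 5.866 and 6.766 CPM at 24 h, against 0.3688, 0.4085 and 0.1864 CPM at 7 h, and rose by 4.56 ± 0.37. The model of IMA3 (chr2:13107583-13110480, TAIR10.1) overlaps 2 other genes and shares a 326-base stretch with CYP71A12, which rose as well, so its reads may not all be its own. BTS, a ubiquitin ligase that restrains the programme, rose by 0.48, and the repressor PYE was not called. The upstream windows of bHLH100 and bHLH38 each held a G-box in capitals, 86 and 92 bases before the start, and are shown for that match. The windows of bHLH39 and bHLH101, the other FIT partners named here, held none. A G-box was found in 6 of 30 windows of the iron list (20%), against 7.33% of all.
BHLH100 (chr2:17199455-17199704, minus strand): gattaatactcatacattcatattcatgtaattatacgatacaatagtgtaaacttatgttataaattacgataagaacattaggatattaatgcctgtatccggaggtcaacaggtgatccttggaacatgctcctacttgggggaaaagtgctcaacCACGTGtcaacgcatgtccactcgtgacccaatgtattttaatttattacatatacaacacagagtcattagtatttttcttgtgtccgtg
BHLH38 (chr3:21085246-21085495, minus strand): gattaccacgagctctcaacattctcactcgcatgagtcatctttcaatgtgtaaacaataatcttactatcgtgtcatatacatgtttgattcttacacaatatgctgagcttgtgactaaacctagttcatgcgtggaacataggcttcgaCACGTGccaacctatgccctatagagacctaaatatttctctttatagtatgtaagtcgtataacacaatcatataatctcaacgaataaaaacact

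Coumarin genes rose together with the transporters. F6'H1, the first enzyme of scopoletin synthesis, averaged 622.8 ± 44.71 CPM at 24 h and 183.2 ± 9.360 CPM at 7 h. The coumarin exporter ABCG37 averaged 675.2 ± 49.80 CPM at 24 h and 274.8 ± 26.55 CPM at 7 h. S8H and CYP82C4, which make the catechol coumarins fraxetin and sideretin, rose by 2.65 ± 0.49 and 3.29 ± 0.42. CYP82C4 shares 1760 bases at 91.6% identity with CYP82C2, which rose by 4.90, so the 2 genes may share reads. Among genes for iron movement inside the plant, the nicotianamine synthases NAS1 and NAS2 rose by 1.17 and 1.05 on the log2 scale and the phloem transporter OPT3 by 1.08, and NAS4 rose 3.49-fold.

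The 4 falls were on the storage side. VTL5, a vacuolar iron transporter-like gene, had 69.27, 82.62 and 82.48 CPM in 24 h roots, against 218.0, 250.2 and 221.9 CPM in 7 h roots, and fell by 1.56 ± 0.12 (edgeR adjusted p = 2.42e-15). VTL2 fell by 1.38 ± 0.21. The ferritins FER1 and FER4, which hold iron in plastids and mitochondria, fell by 0.88 ± 0.15 and 1.11 ± 0.11, FER3 was not called at 48.69 ± 2.911 CPM at 24 h and 44.35 ± 2.691 CPM at 7 h, and VTL1 was not called either.

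**Figure D4:**
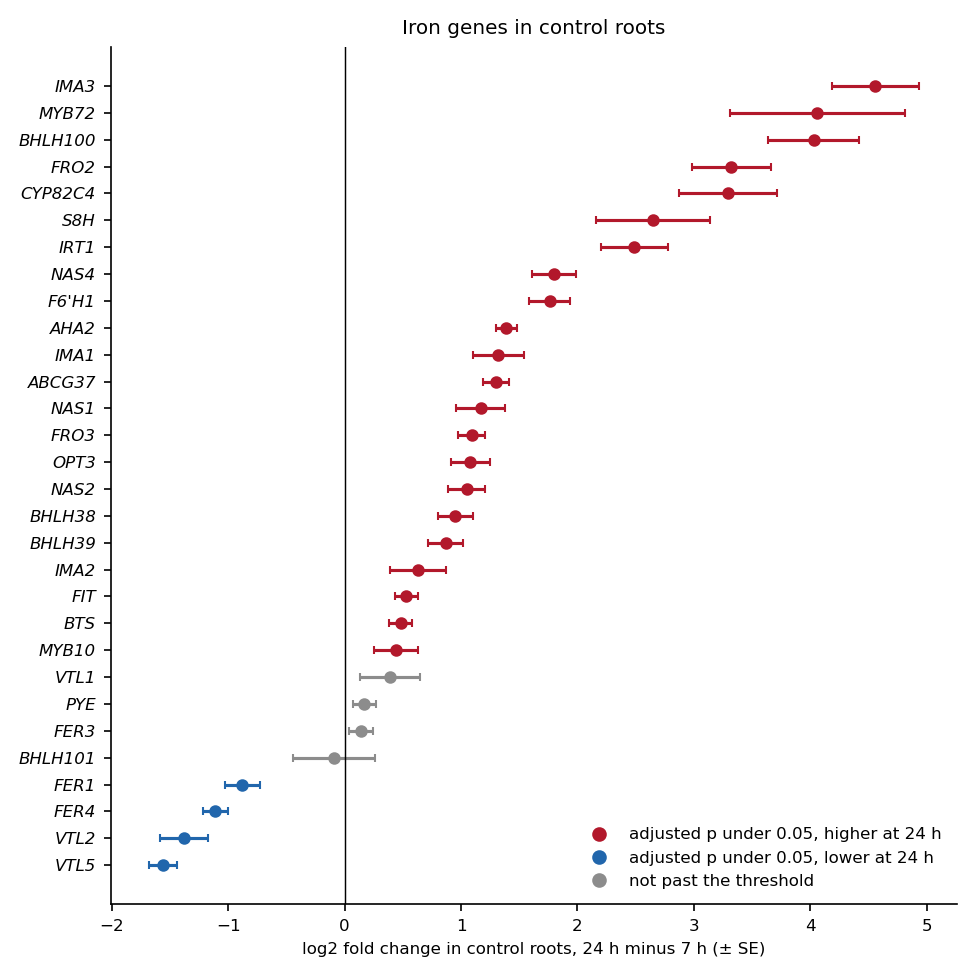
Log2 fold change of 24 h minus 7 h with its standard error for 30 iron genes in control roots, ordered by size; red points were called higher, blue lower and grey not called. Uptake, signalling and coumarin genes lie to the right, up to 4.56 for IMA3, and VTL5, VTL2, FER4 and FER1 lie to the left, down to -1.56.

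In the wider time course IRT1 averaged 195.3, 130.9, 89.88, 140.8, 48.76, 274.8 and 330.3 CPM over the same times, so the 7 h mean was the lowest. Its 24 h mean was above that at 0 h, but the libraries of those times overlapped. That step crosses a library prefix and was not tested. FRO2 had its lowest mean at 7 h (19.09 CPM) and higher means at 24 and 48 h (191.9 and 210.4 CPM). The means of IMA3 stayed under 0.4 CPM up to 7 h, and it averaged 7.013 CPM at 24 h and 0.5822 CPM at 48 h. VTL5 kept between 200.1 and 230.0 CPM from 0 to 7 h, averaged 78.12 CPM at 24 h and 220.7 CPM at 48 h.

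**Figure D5:**
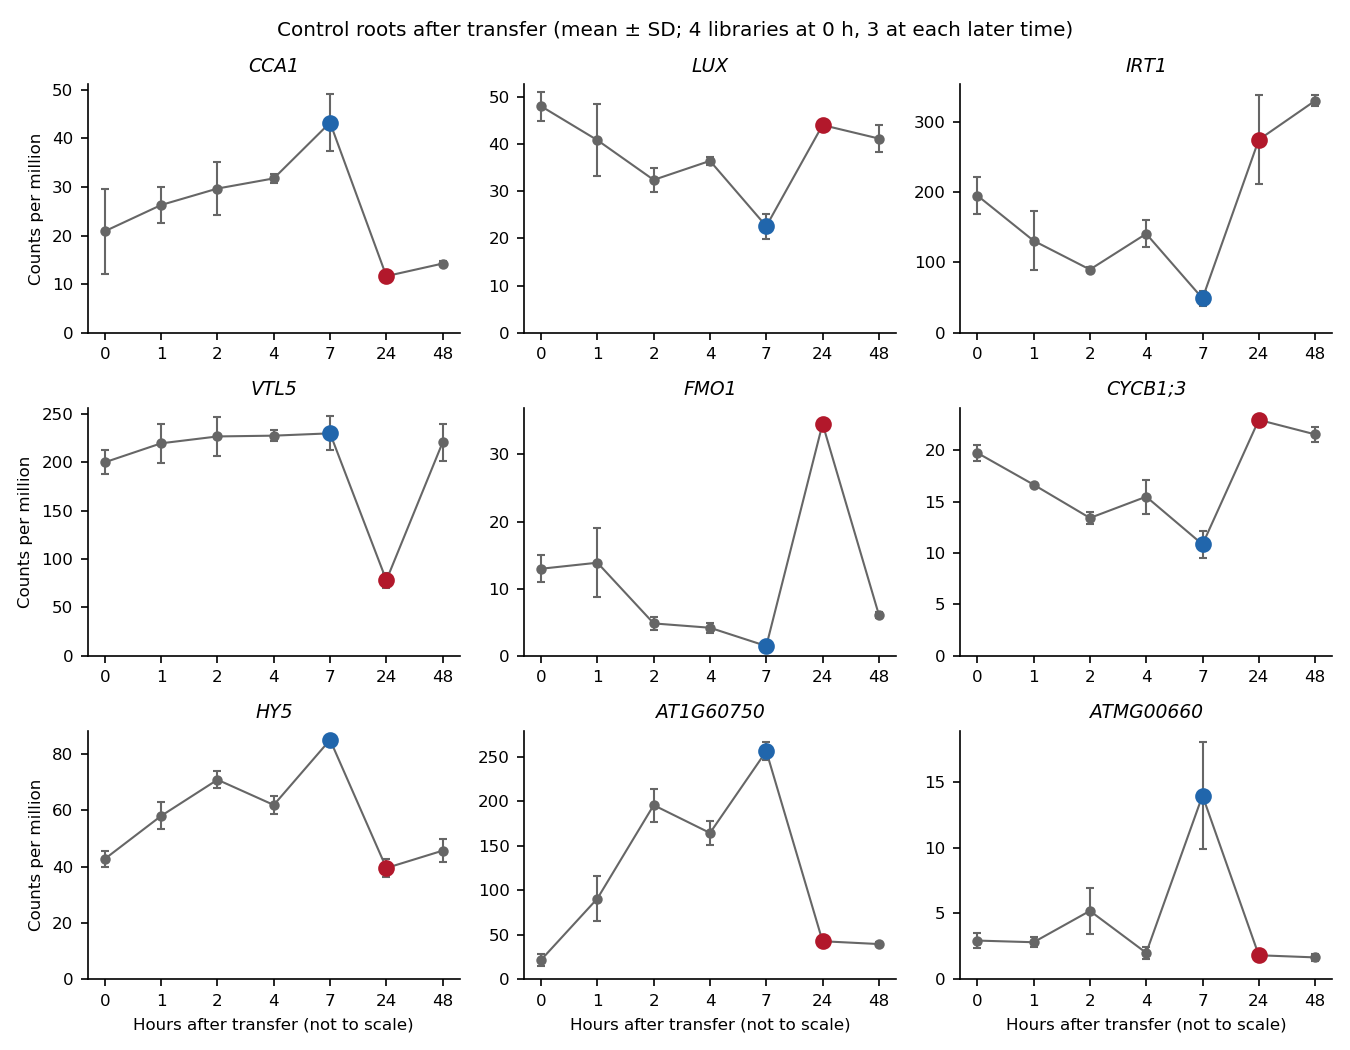
Mean CPM with SD of 9 genes in control roots at 7 times after transfer, 0 to 48 h (4 libraries at 0 h, 3 at each later time), with 24 h in red and 7 h in blue and each panel on its own axis from 0 and the times evenly spaced, not to scale. CCA1, HY5, AT1G60750 and the mitochondrial ATMG00660 have their highest mean at 7 h, LUX, IRT1, FMO1 and CYCB1;3 their lowest.

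The 10 genes with the largest rises held 2 of the iron genes, IMA3 and bHLH100, and several genes known from defence. FMO1, which makes the immune signal N-hydroxypipecolic acid, had 34.15, 34.14 and 35.36 CPM in 24 h roots, against 1.549, 1.401 and 1.445 CPM in 7 h roots. Its libraries were close within each time and far apart between them (log2 fold change 4.55 ± 0.40, edgeR adjusted p = 2.31e-13). CYP82C2, a P450 of indole defence compounds, had 18.14, 17.14 and 24.87 CPM at 24 h, against 0.3319, 0.4669 and 1.002 CPM at 7 h. A pair of neighbouring lectin receptor kinase genes on chromosome 2 were among the 10 as well. AT2G29250 (chr2:12578909-12580780) had 220, 146 and 361 counts at 24 h, against 0, 0 and 7 at 7 h, and AT2G29220 (chr2:12562629-12564691) had 65.08, 44.43 and 62.98 CPM at 24 h, against 3.098, 1.867 and 4.823 CPM at 7 h. The rest were the peroxidase AT3G03670 (log2 fold change 5.05), the glutamate receptor GLR2.2 (4.25), the extensin-like AT1G26240 (4.01) and AT2G30660, annotated in the Clp protease and crotonase family (3.73). The 7 h replicate 3 held most of the few 7 h counts. Without it the log2 fold changes of AT3G03670, CYP82C2 and GLR2.2 were 7.34, 5.70 and 5.08, against 5.05, 4.90 and 4.25 with it. AT2G29250, at 6.27 with that library, had 0 counts in the other 7 h libraries, so no fold change without it is given.

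A list of 21 immune and indole genes was drawn up after these rises had been seen, so its counts are a description only. Of the 21, 14 rose and none fell, with a median of 0.72. CYP71A12, a P450 of camalexin and cyanogenic indole synthesis, had 568.6, 470.6 and 605.7 CPM at 24 h, against 73.05, 57.54 and 75.79 CPM at 7 h; it has near-identical copies, among which reads may be split. PBS3, an enzyme of salicylic acid synthesis, had 88.09, 79.17 and 70.50 CPM at 24 h, against 8.482, 7.003 and 8.201 CPM at 7 h, a log2 fold change of 3.31 ± 0.38. PAD3, the last enzyme of camalexin synthesis, rose by 1.03, the immune regulator CBP60G by 1.58, and PAD4 and EDS1 by 0.86 and 0.59. ALD1 and SARD4, which act in the pipecolic acid branch with FMO1, were not called, and neither was WRKY70. PR2 and PR5, classic marker genes of salicylic acid responses, had 0 counts in all 6 libraries, which allows at most 0.0573 to 0.18 CPM by library (3 counts, for counting error only), and PR1 was under 0.1 CPM. FMO1 averaged 12.97 CPM at 0 h and 6.106 CPM at 48 h, so its 24 h mean of 34.55 CPM was the highest of the 7 times.

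Nitrate assimilation was higher at 24 h. Of 34 nitrogen genes, 19 rose and 6 fell, with a median of 0.38. NIR1, nitrite reductase, had 595.0, 508.7 and 520.5 CPM at 24 h, against 222.3, 243.2 and 212.3 CPM at 7 h (log2 fold change 1.26 ± 0.11, edgeR adjusted p = 8.05e-14). The nitrate reductase NIA1 rose by 1.19 and the ferredoxin reductase RFNR2, which supplies electrons to the pathway in roots, by 1.01. Of the transporters, NRT1.1, which also senses nitrate, rose by 1.06, and the high-affinity NRT2.1 had 62.84, 39.66 and 62.37 CPM at 24 h, against 16.08, 20.43 and 18.13 CPM at 7 h (3.04-fold, edgeR adjusted p = 7.78e-09). NRT2.1 shares 1446 bases at 91.2% identity with NRT2.2, which was at 0 counts in every 7 h library. NRT2.4, another high-affinity carrier, rose by 1.95 ± 0.27. In the time course NRT2.1 averaged 49.92 CPM at 0 h, 18.21 CPM at 7 h, 54.96 CPM at 24 h and 29.26 CPM at 48 h. The ammonium transporters AMT1;1, AMT1;2, AMT1;3 and AMT2 were not called. The falls included HRS1, LBD37 and LBD39, transcription factors that respond to nitrogen supply, by 1.08, 0.60 and 0.77.

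Of 19 sulfur genes 8 rose and 4 fell, with a median of 0.23. APR1, which reduces activated sulfate, had 184.5, 152.4 and 169.4 CPM at 24 h, against 72.28, 83.22 and 62.35 CPM at 7 h, and rose by 1.22 ± 0.16, and the vascular sulfate transporter SULTR2;1 rose 2.30-fold. The vacuolar exporter SULTR4;2 fell by 1.39 ± 0.16 and the sulfur-deficiency gene LSU1 by 1.07. Of 16 phosphate genes 10 rose and none fell, with a median of 0.51. PS2, a phosphatase induced by phosphate starvation, had 7.758, 6.709 and 6.010 CPM at 24 h, against 1.696, 3.035 and 1.654 CPM at 7 h (1.76 ± 0.23). The transporters PHT1;1 and PHT1;2 rose by 0.31 and 0.77 but share 1577 bases at 97.7% identity, so their reads may be split between them, and PHT1;1 was called without the 24 h replicate 2 or the 7 h replicate 3 but not without any of the other 4 libraries. PHO1;H1 and PLDZ2, of phosphate transport and lipid remodelling, rose by 0.93 and 0.56, and SPX1, which reports phosphate status, was not called.

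Cell-cycle genes were higher at 24 h. Of 33, 25 rose and 2 fell, with a median of 0.61 and no rise above 1.17. Windows of 2 of them are shown because both hold the MSA core (CAACGG, searched on both strands, in capitals), the element of MYB3R factors in genes of mitosis. It was found in 9 of 33 windows of the list (27.3%), against 5.64% of all.
KNOLLE (chr1:2711001-2711250, minus strand): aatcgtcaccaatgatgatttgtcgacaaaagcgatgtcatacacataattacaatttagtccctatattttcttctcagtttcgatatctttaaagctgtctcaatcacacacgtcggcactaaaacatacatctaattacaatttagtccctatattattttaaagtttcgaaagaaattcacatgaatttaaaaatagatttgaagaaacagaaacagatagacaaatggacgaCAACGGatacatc
CYCB1;2 (chr5:1861704-1861953, minus strand): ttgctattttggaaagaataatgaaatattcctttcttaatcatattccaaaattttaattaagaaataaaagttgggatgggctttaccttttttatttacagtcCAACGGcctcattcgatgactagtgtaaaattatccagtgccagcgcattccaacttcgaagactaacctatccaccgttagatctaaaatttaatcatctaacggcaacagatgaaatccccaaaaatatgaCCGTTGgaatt

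KNOLLE, the syntaxin of the forming cell plate, averaged 60.37 ± 2.047 CPM at 24 h and 30.36 ± 2.504 CPM at 7 h (log2 fold change 1.00 ± 0.09, edgeR adjusted p = 1.21e-12). The cyclin CYCB1;2 rose by 0.80 ± 0.09, with 40.61, 44.05 and 42.70 CPM at 24 h, against 24.56, 25.27 and 23.56 CPM at 7 h, and shares 390 bases with another annotated gene. The mitotic kinase CDKB1;1 rose by 1.17 ± 0.09, the cyclin CYCA1;1 by 1.11 ± 0.13 and MAP65-3, which bundles microtubules of the dividing cell, by 1.11 ± 0.10. All 8 B-type cyclins of the list rose. Genes of DNA replication rose less, MCM2 by 0.76, MCM7 by 0.49 and MCM5 by 0.27, and PCNA1 was not called. CDKA;1, present through the whole cycle, had 48.27, 49.70 and 47.84 CPM at 24 h, against 45.39, 47.50 and 48.93 CPM at 7 h, and was not called. CDC20.1 and CDC20.2, activators of the complex that ends mitosis, were the 2 that fell, by 0.60 and 0.64, and share 1366 bases at 97.0% identity. In the time course CYCB1;3 averaged 19.74 CPM at 0 h, 10.84 CPM at 7 h, 22.95 CPM at 24 h and 21.54 CPM at 48 h, so the 24 h value was near that before transfer.

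Genes of wall loosening and cellulose synthesis also rose. Of 19, 13 rose and none fell, with a median of 0.54. XTH20, a xyloglucan-modifying enzyme, had 87.87, 90.98 and 73.43 CPM at 24 h, against 28.03, 25.68 and 25.30 CPM at 7 h (1.67 ± 0.17), and the expansin EXPA4 had 135.4, 116.5 and 119.8 CPM, against 39.75, 54.10 and 52.03 CPM (1.35 ± 0.16). XTH19 and EXPA10 of the same families rose 2.14-fold and by 1.23 on the log2 scale. In the time course XTH20 stayed between 26.34 and 36.16 CPM from 0 to 7 h and averaged 84.09 CPM at 24 h and 93.63 CPM at 48 h. The cellulose synthases of the primary wall, CESA1, CESA3 and CESA6, rose by 0.54, 0.75 and 0.86. Of 14 root-hair genes 9 rose and 2 fell, with a median of 0.52, and only 1 fell when any library but the 24 h replicate 1 was left out. COBL9 and RHD6, needed for hair growth and hair start, rose by 0.79 and 0.69, the wall enzyme XTH12 by 0.66 and the patterning factor WER by 0.64, and GL2, which keeps cells hairless, fell by 0.41 ± 0.11. Of 29 auxin genes 9 rose and 8 fell, with a median of 0.13, and the number that fell was 4 without the 24 h replicate 3. The carriers PIN7, AUX1 and PIN2 rose by 1.24 ± 0.09, 0.79 and 0.61, whereas PIN3 was not called. GH3.2 and GH3.6, which conjugate auxin, rose by 1.43 and 0.68, and GH3.2 shares 1812 bases at 90.2% identity with another gene. Of 17 cytokinin genes 6 rose and 3 fell. ARR5, a quick response gene, had 28.34, 35.23 and 36.89 CPM at 24 h, against 15.82, 10.62 and 9.017 CPM at 7 h (1.51 ± 0.20), while ARR8 of the same family fell by 1.01 ± 0.10 and has near-identical stretches elsewhere. The cytokinin oxidase CKX5 fell by 0.58, and ARR7 rose by 0.55, a call that leaving out any library but the 24 h replicate 2 removed.

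Glucosinolates are sulfur-rich defence compounds of the cabbage family. Of 19 genes of their synthesis 14 rose and 1 fell, with a median of 0.76, or 2 fell without the 24 h replicate 3 or the 7 h replicate 1. The methionine-derived branch rose most. MAM1, which lengthens methionine side chains, had 87.71, 73.17 and 91.81 CPM at 24 h, against 18.77, 19.08 and 17.47 CPM at 7 h (4.58-fold, edgeR adjusted p = 3.07e-10). BCAT4, MAM3 and CYP83A1 rose by 1.57, 1.47 and 1.46 and their regulator MYB28 by 0.71. MAM1 averaged 46.49, 72.79, 43.20, 37.99, 18.44, 84.23 and 84.22 CPM over the 7 times, lowest at 7 h. CYP79F2 rose by 1.62 but shares 1217 bases at 91.7% identity with CYP79F1. In the indole branch CYP79B2 rose by 0.77 and CYP83B1 by 0.46 (not called without the 24 h replicate 3 or the 7 h replicate 1), CYP79B3 was not called, and the regulator MYB34 fell by 0.46. Glutathione transferases were mixed, with 6 up and 9 down among 21. GSTU20 rose by 2.28 ± 0.21, and GSTF6 and GSTF7, which share 892 bases at 92.6% identity, rose by 1.85 on the log2 scale and 4.29-fold. GSTF8 had 1034.6, 1106.0 and 1052.8 CPM at 24 h, against 2371.9, 2529.6 and 2558.5 CPM at 7 h, and fell by 1.22 ± 0.08, and GSTU2 fell by 1.70.

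The 10 largest falls were 3 mitochondrial transcripts and 7 nuclear genes, several of them uncharacterised. AT1G60750, annotated as an NAD(P)-linked oxidoreductase (chr1:22362293-22363854), had 41.78, 48.72 and 37.31 CPM in 24 h roots, against 259.8, 264.7 and 245.2 CPM in 7 h roots (log2 fold change -2.59 ± 0.18, edgeR adjusted p = 1.54e-16), and shares 225 bases with a neighbouring gene. In the time course it averaged 21.60 CPM at 0 h, 90.66 CPM at 1 h and 256.6 CPM at 7 h, and 42.60 and 39.43 CPM at 24 and 48 h. AT5G60460, annotated as a Sec61-beta subunit of protein translocation, had 6.232, 7.095 and 6.692 CPM at 24 h, against 44.47, 38.17 and 42.62 CPM at 7 h. AT1G18020 fell by 2.81 ± 0.31 but is identical over 1269 bases to AT1G17990, and AT2G01008 has 8 near-identical copies; its fall of 2.96 was 2.30 without the 7 h replicate 3. AT2G31141, AT1G06540 and AT1G11070 fell by 2.66, 2.52 and 2.31, and other annotated genes overlap AT2G31141 and AT1G06540.

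Transcripts of both organelle genomes were lower at 24 h. Plant organelle RNAs mostly lack a lasting poly(A) tail, so poly(A) selection captures few of them. Mitochondrial genes took 0.0098 to 0.0106% of the counts at 24 h and 0.0272 to 0.048% at 7 h. Both groups of organelle genes were formed after their values had been seen, so their counts are a description only. Of 57 tested mitochondrial genes 47 fell and 2 rose, with a median of -1.72, and of 48 plastid genes 28 fell and 1 rose, with a median of -1.28. ATMG00660 had 1.753, 2.143 and 1.549 CPM at 24 h, against 15.27, 9.396 and 17.27 CPM at 7 h. ATMG01320 and ATMG00510 fell by 2.61 and 2.30. ATMG00660 averaged 1.997 CPM at 4 h and 5.197 CPM at 2 h, and for this gene the 7 h libraries stood above those of all the other times. The mitochondrial share at 2 h was 0.0167 to 0.0296%, which overlapped that at 7 h, and 7 h replicate 3 had the highest share of the 6. The share at 7 h was also high in ABA roots (0.0308 to 0.0403%) and SA roots (0.0415 to 0.0744%). RNA quality values were not used here, and the part of RNA selection or quality in this fall was not tested. The 10 most abundant genes took 3.3 to 3.48% of counts at 24 h and 2.72 to 2.83% at 7 h.

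HY5 and HYH, the paired bZIP factors that drive light responses and also act in roots, fell. HY5 had 43.04, 38.95 and 36.41 CPM at 24 h, against 85.18, 85.61 and 84.28 CPM at 7 h (log2 fold change -1.11 ± 0.09, edgeR adjusted p = 8.48e-14), and HYH fell by 1.05 ± 0.12. The flavonoid genes listed with them fell in 6 of 15 cases and rose in 1, HY5 and HYH included, and the number that rose was 3 without the 24 h replicate 2 or 3 and 2 without the 7 h replicate 3. CHI and F3H fell by 0.66 and 0.49, chalcone synthase CHS was not called (adjusted p = 0.0504), and MYB12, which activates the pathway, fell by 0.93, a call lost without the 24 h replicate 3. Genes of photosynthesis in the leaf fell in 12 of 31 cases and rose in 2, with a median of -0.74, and fell in 7 without the 24 h replicate 3, while rises numbered 0 or 1 without any of the replicates 1 and 3. PSBO1 of photosystem II had 11.85, 9.589 and 10.69 CPM at 24 h, against 27.80, 40.09 and 35.51 CPM at 7 h (-1.68 ± 0.22), and the antenna protein gene LHCB4.1 had 6.914, 5.901 and 4.738 CPM at 24 h, against 16.67, 17.62 and 17.36 CPM at 7 h (-1.57 ± 0.22). The antenna genes LHCA2 and LHCA3 fell by 1.61 and 1.57; LHCA2 has a near-identical copy, fell by 2.26 without the 24 h replicate 1 and lost its call without the 24 h replicate 3. The most abundant leaf transcripts spread widely at 24 h. RBCS1A, the small subunit of Rubisco, had 33.08, 9.624 and 3.337 CPM at 24 h, against 17.33, 18.15 and 17.33 CPM at 7 h, and was not called; it has a near-identical copy. Replicate 1 was the highest of the 24 h libraries for RBCS1A, for CA1 and for each of the 13 antenna genes. In shoots LHCB4.1 averaged 3765.9 CPM at 24 h and 5175.2 CPM at 7 h, so the root levels were a small share of those in green tissue. In control roots LHCB4.1 was at its highest mean of the 7 times at 7 h (17.22 CPM) and between 5.851 and 9.644 CPM at the others.

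Cold and drought genes split. Of 15, 4 rose and 5 fell, with a median of -0.51, or -0.26 with a gene that had 0 counts at 24 h set at its bound. KIN1, a small hydrophilic protein induced by cold and ABA, had 16.26, 19.00 and 15.23 CPM at 24 h, against 58.12, 66.59 and 81.53 CPM at 7 h, and fell by 2.04 ± 0.15. It shares 505 bases at 92.1% identity with a neighbouring gene. The dehydrins COR47 and ERD10 fell by 0.77 and 0.51, the ABA synthesis gene NCED3 by 0.72, a call lost without the 24 h replicate 1 or the 7 h replicate 3, and the receptor gene PYL6 and the homeobox gene HB-7 rose by 0.48 and 0.68. KIN1 averaged 11.69 CPM at 0 h, 68.74 CPM at 7 h, 16.83 CPM at 24 h and 33.56 CPM at 48 h. RAB18 and LTI65, strong ABA reporters, stayed under 0.5 CPM in all 6 libraries. Genes of sugar and energy status fell in 9 of 18 cases and rose in 3, with a median of -0.47. The list was not split into genes raised by low sugar and genes raised by sugar. BZIP63, a target of the energy kinase SnRK1, had 10.13, 12.36 and 20.32 CPM at 24 h, against 32.78, 34.72 and 49.28 CPM at 7 h (-1.43 ± 0.24), the asparagine synthetase ASN1 fell by 1.43 ± 0.39 and the dormancy gene DRM1 by 1.58 ± 0.34. Within each time replicate 3 was the highest for BZIP63 and BZIP1. In sugar transport 4 of 14 genes rose and 1 fell, with the sucrose synthase SUS4, the hexose carrier STP4 and the wall invertase CWINV1 up by 1.14, 0.97 and 0.77 and the sucrose carrier SUC1 down by 0.71. The number that fell was 2 without the 24 h replicate 1.

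Of the remaining lists, heat-shock genes had a median of -0.34 and peroxidases one of 0.29. Heat-shock genes fell in 9 of 20 cases and rose in 2, with the chaperone gene ROF1 up by 0.71, the galactinol synthase GOLS1 down by 1.56 ± 0.13 and HSFA7A down by 1.51 ± 0.41, or to 0.350 of the 7 h level, against 0.218 of it without the 24 h replicate 3. Suberin and Casparian-strip genes rose in 5 and fell in 8 of 18 cases, with the elongase KCS2 down by 1.24, the regulator MYB41 down by 1.96 and the hydroxylase CYP86A1 up by 0.69. Touch, wounding and jasmonate genes rose in 6 and fell in 6 of 26 cases, the number that rose being 3 without the 7 h replicate 3, and the calmodulin-like CML24 rose by 0.82. Aquaporins rose in 6 and fell in 4 of 19 cases, with falls in 2 without the 24 h replicate 1 or 2, and PIP2;6 rose by 0.85 and PIP1;4 fell by 0.49. Gibberellin genes rose in 2 and fell in 6 of 16 cases, with falls in 3 without the 24 h replicate 1 or 2, and the synthesis gene GA3OX2 fell by 0.71. Ribosome assembly genes rose in 4 of 8 cases, NUC1 by 0.43 ± 0.07 and APUM23 by 0.58 ± 0.06, and none fell. Of 62 genes annotated as peroxidase superfamily or peroxidase family proteins, a group formed after its values had been seen, 26 rose and 16 fell. Markers of root cell types rose in 4 and fell in 3 of 12 cases, the root-cap factor BRN2 falling by 0.56, the phloem factor APL falling by 0.79 and the xylem protease XCP1 rising by 0.67, with PLT2 of the stem-cell niche not called.

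Upstream sequence was then set against the direction of change across all genes. The G-box was found in 5.36% of 1288 windows of genes at least 2-fold higher at 24 h, in 9.27% of 1122 windows of genes at least 2-fold lower and in 7.33% of all 21258. The W-box of WRKY factors (TTGACC or TTGACT, both strands) was found in 34.8% of the higher group, 25.4% of the lower group and 28.9% of all. The evening element was found in 3.42%, 2.85% and 2.45%, and the telomere-like box AAACCCTA of growth genes, both strands, in 4.11%, 2.94% and 3.51%, in the same order. The MSA core was found in 5.28%, 4.72% and 5.64%, and the CCA1-binding site AAAAATCT, both strands, in 7.22%, 5.7% and 6.64%. These shares are descriptions with no test.

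The same pair of times was read in the hormone-treated roots. In ABA roots 32.7% of genes were higher and 32.3% lower at 24 h, and in SA roots 33.6% and 32.6%. Of the 1290 genes at least 2-fold higher in control roots, 1002 were called higher and 25 lower in ABA roots, 905 and 76 in SA roots, and 454 and 58 in control shoots. Of the 1197 at least 2-fold lower, 972 were called lower and 7 higher in ABA roots, 785 and 85 in SA roots, and 299 and 106 in shoots. These genes were chosen by their change in control roots, so their medians elsewhere (1.17, 1.01 and 0.52 for the higher group, against 1.36 in control roots) are not a measure of how far the treatments differ. The test of the difference against control roots called 2285 genes (10.7%) in ABA roots and 7823 (36.6%) in SA roots. The ABA count was 508 without replicate 2 and 1403 without replicate 3 of every group, and the SA count was 4312 without replicate 2. Leaving out the SA 24 h libraries of another name prefix left only replicate 1 at that time. No conclusion is drawn from the count of that fit.

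Clock genes were compared by treatment. In ABA roots 13 of 15 morning genes fell and none rose, with a median of -0.74, and the change was called different from control for CCA1, LHY, RVE2 and RVE6. Of the day and evening genes none of 13, and of the clock-output genes 2 of 18, were called different from control in ABA roots. In SA roots 3 morning genes rose and 3 fell, with a median of -0.11, and 12 were called different, as were 10 of 13 day and evening genes and 12 of 18 clock-output genes. The SA 24 h replicates 2 and 3 carry another library-name prefix than the other ABA, SA and control root libraries of both times. LHY averaged 54.71 CPM at 24 h and 80.98 CPM at 7 h in ABA roots and 53.00 and 51.75 CPM in SA roots, and its change differed from that in control roots by 0.92 ± 0.24 (edgeR adjusted p = 0.0085) and 1.51 ± 0.25 (adjusted p = 3.85e-06). The LHY difference in ABA roots was 0.72 and not called without replicate 2 of every group (adjusted p = 0.27). Of the 30 iron genes 20 rose in ABA roots and 21 in SA roots. VTL5 averaged 286.3 CPM at 24 h and 82.26 CPM at 7 h in SA roots, which rose where control roots fell (difference 3.36 ± 0.17, adjusted p = 3.74e-20), and 18.52 CPM at 24 h and 73.43 CPM at 7 h in ABA roots, a fall of 1.99. bHLH39 rose by 2.99 in ABA roots, more than in control roots (difference 2.12 ± 0.23, adjusted p = 8.92e-09).

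Nitrogen genes rose in 24 and fell in 7 of 34 cases in ABA roots, and rose in 7 and fell in 16 in SA roots, where 23 were called different from control. NIR1 averaged 934.3 CPM at 24 h and 205.7 CPM at 7 h in ABA roots, and 357.4 and 531.7 CPM in SA roots (difference from control -1.83 ± 0.15, edgeR adjusted p = 2.45e-13). Wall-growth genes rose in 11 and fell in 1 of 19 cases in ABA roots and rose in 6 and fell in 10 in SA roots, and EXPA4 fell by 0.59 in SA roots (difference -1.94 ± 0.23, adjusted p = 7.65e-09). Cell-cycle genes rose in 26 of 33 cases in ABA roots, in 25 in SA roots and in 21 in control shoots, and the difference from control roots was called for 5, 14 and 10 of them. Sugar-status genes fell in 11 of 18 cases in ABA roots and rose in 8 in SA roots, where 14 were called different. HY5 fell by 1.04 in ABA roots and by 0.58 in SA roots and rose by 0.86 in shoots (root minus shoot -1.95 ± 0.30, adjusted p = 1.62e-07). In shoots bHLH38 averaged 162.0 CPM at 24 h and 1.934 CPM at 7 h, a larger rise than in roots (root minus shoot -5.41 ± 0.51, adjusted p = 8.78e-15). The difference was also called for bHLH39 (-4.53), bHLH100 (-4.06) and bHLH101 (-4.08). Mitochondrial transcripts fell in 30 of 57 cases in ABA roots and 37 in SA roots, and in 3 of 60 in shoots.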

How the data were processed

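RNA was measured in 116 libraries of Arabidopsis seedlings, 58 from roots. Per the labels' protocols these were stranded poly(A) libraries read in pairs, and per the submitters' processing notes reads were aligned with HISAT2 to TAIR10 and counted with featureCounts. The deposited values are raw read counts per gene, and whether counting used strand is not given in the sources used here, so overlapping and antisense genes may share counts. Of 27655 gene identifiers, 27445 matched a RefSeq locus tag of TAIR10.1, which supplied products, positions and upstream sequence.

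All 58 root libraries in 19 groups were fitted together with edgeR 4.0.16 (R 4.3.3; TMM scaling, filterByExpr, quasi-likelihood test, Benjamini-Hochberg adjustment); root was compared with shoot in 1 fit over both tissues without the shallow shoot library. Tested on simulated counts for control roots at 24 h and 7 h, the fit recovered 89 of 99 genes changed 2-fold and 96 of 100 changed 4-fold, among 20891 tested. It also called 10 genes simulated without change. All other genes were simulated without change, so the check does not cover data in which 61.9% of genes were called. CPM divides by a library's TMM-scaled total over the tested genes, and the floors below and summed list levels by its unscaled total of all counts. Each SE of a log2 fold change or difference was worked back from the test. It is the absolute value divided by the square root of the quasi-likelihood F, so it adds nothing to the p-value. Near copies are matches of at least 100 bases at 90% identity in BLAST+ 2.17.0+. Alternatives were RLE scaling, no filter, DESeq2 1.42.0, the 6 libraries alone, the replicate number as a block, and leaving out libraries. Depth gives floors of 0.0573 to 0.18 CPM (3 counts) by library.

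The gene groups were chosen with earlier results of these data known, and the immune and indole, peroxidase, mitochondrial and plastid lists after their values were seen. Genes named were all clock genes, the 10 largest rises and falls that averaged at least 5 CPM in the higher group with no overlap of libraries, and up to 4 called genes with the largest change in each other list; further genes were named after their values were seen.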

Additional observations from a re-analysis of the deposited data

Results flagged for a closer look

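Whether the change between 24 h and 7 h differed from that in other samples was tested directly, and the numbers of genes with a called difference were 2285 for ABA roots minus control roots, 7823 for SA roots minus control roots and 7023 for control roots minus control shoots. The differences below are on the log2 scale, are called by edgeR, and were chosen after their values had been seen.

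For ABA roots minus control roots, the difference was 0.92 for LHY, 0.92 for NIR1 and 2.12 for bHLH39. For SA roots minus control roots it was 1.51 for LHY, -1.83 for NIR1, 3.36 for VTL5, -1.94 for EXPA4, -2.63 for CYP71A12, 2.34 for PSBO1 and 1.86 for BZIP63. For control roots minus control shoots it was -4.71 for CCA1, -5.13 for LHY, -4.61 for RVE8, -3.02 for LNK2, 1.89 for TOC1, 3.68 for GI, 3.90 for PRR5, 2.41 for LUX, -5.41 for bHLH38, -4.53 for bHLH39, -4.06 for bHLH100, -4.08 for bHLH101 and -1.95 for HY5. Of these 23 differences, 1 lost its call under an alternative: that of LHY in ABA roots, at 0.72 without replicate 2 (adjusted p = 0.27, edgeR).

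Of 18 genes followed through the control time course, 1 had a library far from the others at 0 h. ATMG00660 had a gap to the nearest library of 0.847 of the range over 4 libraries, above Dixon's critical value, which chance exceeds in about 1 in 20 groups.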

How the results depend on the processing

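The count of called genes was 13230 as reported and between 11083 and 13497 under the alternatives, with 13084 by DESeq2, 13232 with RLE scaling and 13123 without the filter; leaving out a replicate number in every group gave 11083 to 12025, and leaving out 1 of the 6 libraries 11802 to 12625. The median over all genes stayed between -0.008 and 0.015. The scaling centres the bulk of genes near no change, so this median could not show a shift common to all genes. Of 190 called genes that the naming rule covered or the text names, 26 lost the call under at least 1 alternative and none changed sign; of 34 such genes not called, 10 were called under at least 1. A replicate block gave 13353, and 13497 over the 6 libraries alone. Deviations of same-numbered 24 h and 7 h libraries correlated at 0.141, -0.021 and 0.305, and those of differently numbered ones at -0.264 to 0.186. These values do not decide whether the numbers mark pairs, and the main fit did not treat them as pairs. The difference between ABA and control roots called 508 to 2069 genes without a replicate (508 without replicate 2, 1403 without replicate 3). The difference between SA and control roots called 4312 to 6411 without a replicate (4312 without replicate 2) and 4973 without the SA 24 h libraries of another name prefix. The difference between control root and control shoot called 3667 to 7387 without a replicate (3667 without replicate 2, 3846 without replicate 3). Without the SA 24 h libraries of another name prefix, only replicate 1 was left in that group. The shallow 7 h shoot library, replicate 1, was already left out of the root and shoot fits. Leaving out replicate 2 or replicate 3 there left only 1 control shoot library at 7 h. No conclusion is drawn from the counts of fits with 1 library in a group. Why the counts of these differences moved was not tested.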
